A study of Mus musculus with 20 samples.

Results

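The 500 sharp chromatin regions with the densest H3K27ac signal were examined in hepatocytes of mice, the cells that carry out most metabolic work of the liver. H3K27ac is histone H3 acetylated at lysine 27, a mark found at active promoters and enhancers, and it was mapped by chromatin immunoprecipitation and sequencing (ChIP-seq). The cells were isolated by perfusion from old mice (C57BL/6J, 23 months) and from young mice (C57BL/6N, 5 months), with 5 H3K27ac libraries per age, and no transgene or drug treatment is stated for either group. Since old and young mice were of different substrains, age and substrain cannot be told apart. Nothing in the labels ties a library to a single animal, and the p-values below cover only library-to-library spread, which may be technical.

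The members were chosen from the region lists of the 10 libraries. Regions that overlapped by at least 1 bp were merged, which gave 46767 merged regions, of which 12550 were called in all 10 libraries. Of these, 12287 were autosomal and 8335 had a mean called length of 3000 bp or less, here called sharp. Density was the scaled tag count (tags per 10000000 library tags) divided by called length in kb, and the 500 sharp regions with the highest mean density over the 10 libraries were taken. Density therefore chose the members, and their high density is a description and not a finding. At the lower edge the last members were Fxr1, Slain2 and Setd2 at 152.9, 152.9 and 152.8 tags per kb, and the first regions left out were Pitpnm2/Mphosph9, Hnrnph3/Pbld2 and Psip1 at 152.8, 152.8 and 152.7 tags per kb.

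Acetylation of this lysine is written by the coactivators p300 and CBP and removed by histone deacetylases. At promoters it usually lies on the nucleosomes that flank the start site. Promoters rich in CpG dinucleotides (CpG islands) drive most broadly expressed genes, whereas many genes specific to the liver use CpG-poor promoters together with distant enhancers.

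The RefSeq promoter sequences (build GRCm38.p6, 250 bases before to 50 after the start) of 5 members are shown, with CG dinucleotides in capitals: the 3 densest members that hold a single annotated protein-coding start, Btaf1, which was called in the age comparison, and Gapvd1, which has the lowest CpG ratio of the single-start members. The Hipk3 promoter is chr2:104494440-104494739 (minus strand), that of Ino80 chr2:119477638-119477937 (minus), that of Rela chr19:5637291-5637590 (plus), that of Btaf1 chr19:36925829-36926128 (plus) and that of Gapvd1 chr2:34755183-34755482 (minus).
Hipk3: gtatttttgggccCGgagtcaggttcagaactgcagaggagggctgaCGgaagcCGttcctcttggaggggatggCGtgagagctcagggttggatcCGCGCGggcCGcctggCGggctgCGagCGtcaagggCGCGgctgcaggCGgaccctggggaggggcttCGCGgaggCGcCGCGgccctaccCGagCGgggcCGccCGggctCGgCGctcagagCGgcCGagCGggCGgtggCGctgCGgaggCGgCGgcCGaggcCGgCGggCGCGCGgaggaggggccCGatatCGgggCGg
Ino80: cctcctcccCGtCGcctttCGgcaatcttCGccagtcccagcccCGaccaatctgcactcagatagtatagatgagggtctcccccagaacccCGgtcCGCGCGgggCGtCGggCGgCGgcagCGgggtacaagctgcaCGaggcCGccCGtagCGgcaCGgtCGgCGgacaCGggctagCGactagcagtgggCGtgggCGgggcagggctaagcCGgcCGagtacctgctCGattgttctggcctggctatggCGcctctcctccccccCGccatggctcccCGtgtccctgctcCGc
Rela: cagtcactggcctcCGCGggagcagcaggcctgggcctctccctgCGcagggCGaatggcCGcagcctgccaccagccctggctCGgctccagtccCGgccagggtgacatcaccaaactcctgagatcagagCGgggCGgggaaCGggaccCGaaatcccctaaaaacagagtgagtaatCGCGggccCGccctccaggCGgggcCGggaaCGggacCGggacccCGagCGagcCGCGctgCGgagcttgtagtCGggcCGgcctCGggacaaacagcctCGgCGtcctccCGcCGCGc
Btaf1: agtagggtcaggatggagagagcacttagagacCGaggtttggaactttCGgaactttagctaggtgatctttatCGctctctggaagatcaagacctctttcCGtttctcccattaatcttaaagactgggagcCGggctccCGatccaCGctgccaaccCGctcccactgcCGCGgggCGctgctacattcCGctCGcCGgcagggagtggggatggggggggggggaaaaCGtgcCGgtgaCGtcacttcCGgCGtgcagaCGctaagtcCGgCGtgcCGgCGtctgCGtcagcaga
Gapvd1: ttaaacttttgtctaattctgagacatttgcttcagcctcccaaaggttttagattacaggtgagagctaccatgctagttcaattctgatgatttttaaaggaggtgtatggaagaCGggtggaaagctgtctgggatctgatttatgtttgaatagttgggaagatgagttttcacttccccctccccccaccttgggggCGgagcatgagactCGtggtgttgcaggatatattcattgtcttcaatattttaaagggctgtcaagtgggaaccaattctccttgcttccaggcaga

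The CpG ratio is the observed number of CG dinucleotides over that given by the C and G content. The Hipk3 promoter holds 42 of them, with a CpG ratio of 1.04 and a GC content of 76.0%, and the Btaf1 promoter holds 25, with a ratio of 0.93. The Gapvd1 promoter stands apart with 3 CG dinucleotides, a ratio of 0.21 and a GC content of 43.7%.

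The densest members were of 2 kinds. The first 4 by density lay at no protein-coding gene and had the highest input of all members, and the next 6 were promoters. The region chr1:195240978-195242504 (build mm10, as all region coordinates here) had 1942, 1625, 2246, 1526 and 1123 tags per kb in old libraries, against 2039, 1587, 1693, 2429.5 and 1454 tags per kb in young libraries. The ages overlapped, and its mean of 1766 tags per kb was far above that of the member ranked next. Its mean input was 132.7 tags per kb. The region chr19:61199092-61200528 averaged 436 tags per kb with an input of 46.2 tags per kb, and chr17:3082419-3085586 averaged 311 with an input of 53.6 tags per kb.

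The region chr8:20121806-20124206 varied most between libraries of all members. It had 310.1, 442, 361, 258 and 328 tags per kb in old libraries, against 22.1, 508, 83.1, 418 and 307 tags per kb in young libraries. Young replicates 1 and 3 were low and the other 3 young libraries lay within or above the old range. Its input was low in the same libraries, at 3.98 tags per kb in young replicate 1 and 14.8 in young replicate 3, against 26.0 to 68.4 in the other young libraries and 39.2 to 76.0 in old libraries. At chr17:3082419-3085586 young replicate 1 was also the lowest library, at 94.0 tags per kb and an input of 21.7 tags per kb. The part of input in the density of these 4 regions was not tested. The 4 were the members with a mean input above 40 tags per kb. An input above 25 tags per kb was found in 9 members and in 1 of the 7835 other sharp regions.

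**Figure D1:**
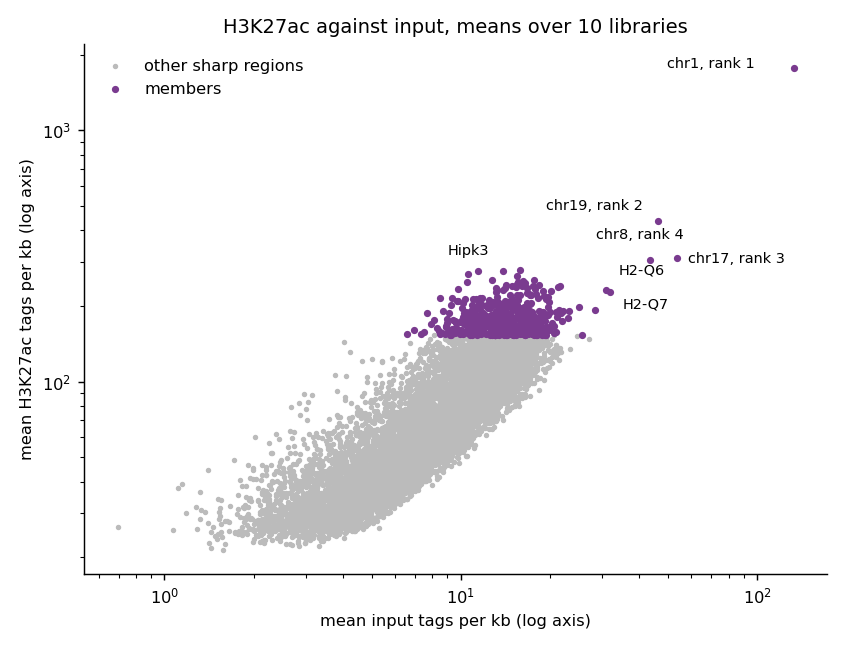
Mean H3K27ac tags per kb against mean input tags per kb over the 10 libraries, both on log axes, for the 500 members (purple) and the other 7835 sharp regions (grey). The 4 densest members and H2-Q6 and H2-Q7 lie to the right of the other labelled member, Hipk3, with inputs of 30.9 tags per kb or more.

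Hipk3, which encodes a homeodomain-interacting protein kinase, was the densest member at a gene. It had 272, 273, 276, 178 and 258 tags per kb in old libraries, against 204, 415, 361, 291 and 253 tags per kb in young libraries. Old replicate 4 was low and the ages overlapped. Ino80, the ATPase of a chromatin remodelling complex, had 245, 332, 265, 198 and 244 tags per kb in old libraries, against 222, 378, 321, 343 and 214 tags per kb in young libraries. Rela, the p65 subunit of the transcription factor NF-kB, had 242, 271, 254, 237 and 247 tags per kb in old libraries, against 261, 363, 360.2, 294 and 223 tags per kb in young libraries. The old libraries lay close together at Rela and inside the wider young range. Efcab2 followed with a mean of 268 tags per kb, then Pcgf5, a Polycomb group subunit, with 262, and Top1, which encodes a DNA topoisomerase, with 253 tags per kb. The mean inputs of these 6 promoters ran from 10.5 to 15.8 tags per kb.

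Below the first 4 the members formed a narrow band. Densities above 300 tags per kb were confined to those 4, 85 members had 200 to 300 and 411 had less than 200 tags per kb, with a median of 172 tags per kb against 67.6 over all sharp regions. The members were not the shortest of the sharp regions: their median called length was 2468 bp, against 1935 bp over all sharp regions, and 287 of the 500 (57.4%) were also among the 500 densest autosomal regions with no length limit. Their input was higher too, with a median of 14.1 tags per kb in members against 7.55 in other sharp regions, and the ratio of tags to input had a median of 12.4 in members against 8.49 in other sharp regions.

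The 10 libraries held 6295930 to 9847344 tags in old hepatocytes and 7341342 to 15544145 in young hepatocytes, and a member held a median of 201.5 to 416 unscaled tags in old libraries and 337 to 648.5 in young libraries. All 10 hepatocyte markers had a region in all 10 libraries, with summed levels of 4574 to 7425 scaled tags in old and 7784 to 10353 in young libraries, and none of them was a member. None of the 10 had a sharp region, so the rule could not choose them whatever their density. Of 12 Kupffer cell and macrophage markers 11 were at 0 in all libraries, as were 11 of 12 stellate cell, 6 of 12 endothelial, 5 of 8 cholangiocyte and 8 of 10 lymphocyte markers. The summed levels in old and young libraries were 183.5 to 309 and 242.5 to 530.0 scaled tags for the macrophage list, 44.5 to 103 and 0 to 144 for the stellate list, 13.5 to 179 and 66.8 to 179 for the endothelial list, 251 to 587 and 253 to 623 for the cholangiocyte list and 52.4 to 147 and 0 to 209 for the lymphocyte list. The markers at 0 include Clec4f and Adgre1 of Kupffer cells, Lrat of stellate cells, Pecam1 of endothelial cells, Krt19 of cholangiocytes and Cd3e of T cells. Called regions in some libraries were found at 6 endothelial markers, Lyve1 and Stab2 among them, and at 3 cholangiocyte markers, Sox9 and Spp1 among them. A value of 0 means that no region was called within 1000 bp of an end of the gene, not that signal was absent.

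The share of tags inside called regions (the IP efficiency of the headers) was 24.5% to 35.8% in old libraries and 34.6% to 48.2% in young libraries. The median member density was 161.7, 176.9, 167.5, 131.3 and 148.3 tags per kb in old libraries, against 168.9, 227.6, 205.6, 209.0 and 153.4 tags per kb in young libraries. Young replicates 2, 3 and 4 stood above every old library and young replicates 1 and 5 lay inside the old range. Members held 1.64% to 2.20% of library tags in old and 2.02% to 2.89% in young libraries. Young replicates 1 and 3 had a median member input of 22.3 and 28.8 tags per kb, against 6.60 to 13.1 in the other young libraries and 9.04 to 13.8 in old libraries.

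**Figure D2:**
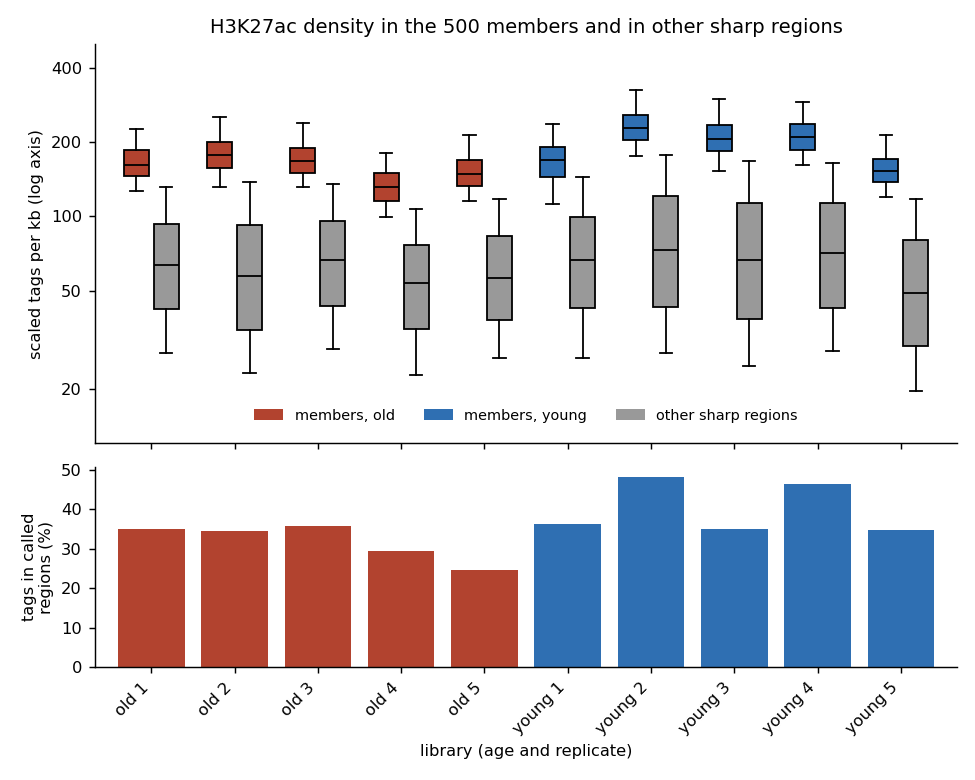
Top, scaled H3K27ac tags per kb (log axis) in each library for the 500 members (red, old; blue, young) and the other sharp regions (grey), as medians with quartile boxes and whiskers from the lowest to the highest 5% of regions. Bottom, the percentage of tags in called regions, which is highest in young replicates 2 and 4, at 48.2% and 46.5%, where the member medians are also highest.

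The mean that ranked the members was made of the same densities, so the stability of the ranking is a description. A member was among the 500 densest sharp regions of all 10 libraries in 103 cases, and of 5 or more libraries in most others. Ranked on old libraries alone, 438 members stayed in the 500 densest, and on young libraries alone 454, and the rankings of old and of young libraries shared 392 regions. After division by the median member of each library, the coefficient of variation over the 10 libraries had a median of 12.8% in members, and 17.5% in other sharp regions after division by the median sharp region. The steadiest member was the promoter region of Cyb5d2 and Zzef1, at 3.93%, followed by Wapl, the cohesin release factor, at 4.73%, and Rab5a, an endosomal GTPase, at 5.40%. The most variable were chr8:20121806-20124206 at 45.8%, Trio at 30.2% and Tusc1 at 30.2%.

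Most members were promoters. Of the 500, 433 (86.6%) lay within 1000 bp of an end of a protein-coding gene, against 51.6% of all 8335 sharp regions. A further 51 lay inside genes, 40 of them over an annotated internal start, and 16 were intergenic. A protein-coding start of the promoter table lay in 393 members (78.6%), against 40.9% of other sharp regions. The table holds none for the 22 members on chromosome 18. Beyond the 4 densest, the 12 other intergenic members had 153 to 208 tags per kb, and 5 of them overlapped an annotated long noncoding RNA gene. One stretch of chromosome 11 held a pair of intergenic members, chr11:101640395-101642798 at 187 and chr11:101645342-101647580 at 191 tags per kb, with low inputs of 7.68 and 8.68 tags per kb.

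Members stood at longer genes and farther away from other acetylated regions. The 512 protein-coding genes with an end at a member had a median length of 35034 bp, against 21569 bp for the 4599 genes at other sharp regions. The median distance to the nearest other region called in all 10 libraries was 39417 bp for members and 20954 bp over all sharp regions. In 32 members 2 genes ran apart from starts within 1000 bp of each other, which was 8.14% of the members with a protein-coding start, against 10.9% of other sharp regions with one, and the densest of these pairs were Dpm1/Mocs3 at 222, Rnf214/Pcsk7 at 204 and Sdhaf2/Cpsf7 at 202 tags per kb.

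The acetylated stretch reached farther into the gene than upstream of it. In the 282 members with a single annotated start, the called length had a median of 1476 bp downstream and 956 bp upstream of the start. More of it lay downstream in 235 of the 282 (83.3%), and in 80.1% to 85.1% in each library alone. In 2471 other sharp regions with a single start the share was 77.0%, with medians of 1113 bp downstream and 738 bp upstream. At Hipk3 the mean called length was 2178 bp downstream and 630.2 bp upstream, and at Gapvd1 1880 bp downstream and 134.6 bp upstream, whereas at Ino80 the stretches were nearly equal, at 1514 and 1424 bp. In members the median downstream length was 1411 bp in old and 1541 bp in young libraries, and the upstream length 934 bp in old and 969.5 bp in young libraries.

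Member promoters were rich in CpG. The 545 promoter sequences of 443 genes had a median GC content of 67.3% and a median CpG ratio of 0.90, against 60.7% and 0.82 for 4143 promoters of other sharp regions and 56.3% and 0.57 for all 21262 protein-coding promoters of the table. A CpG ratio of at least 0.6 was found in 91.0% of member promoters, 81.4% of those of other sharp regions and 47.7% of all. When the sharp regions with a single start were put into 5 equal groups by density, the median CpG ratio ran 0.66, 0.79, 0.83, 0.85 and 0.90 and the median GC content 54.0%, 58.7%, 61.3%, 64.3% and 66.0% from the least to the most dense. GC content can also change how well fragments are amplified and sequenced, and its part in the density was not tested.

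Short motifs were searched on both strands of the same promoter sequences, as a description and not as binding sites. The GC box GGGCGG, bound by SP and KLF factors, was in 73.6% of member promoters, 64.4% of those of other sharp regions and 46.2% of all. It is present in the Hipk3, Ino80, Rela and Gapvd1 promoters printed above. The core TGACGTC of the cyclic AMP response element (CRE), bound by CREB and ATF factors, was in 11.6%, 6.4% and 3.8% in the same order, and the Btaf1 promoter holds it. The E-box CACGTG was in 13.2%, 11.3% and 7.8%. The CCAAT, ETS, ZNF143 and TATA letters were among those rarer in members than in other sharp regions. The CCAAT box CCAAT, bound by NF-Y, was in 28.8%, against 38.6% in other sharp regions and 38.2% in all. The ETS motif CCGGAAG was in 19.3%, 25.2% and 11.6%, the ZNF143 motif ACTACAA in 2.4%, 5.6% and 3.6%, and the TATA box TATAAA in 4.6%, 6.2% and 12.6%. The interferon-stimulated response element (ISRE), searched as the letters GAAA repeated after a gap of 2 free letters, was in 2.8%, 3.2% and 3.4%. HNF4 letters CAAAGTC were in 3.7%, 3.5% and 4.1%, and FOXA letters TGTTTAC in 3.5%, 2.6% and 3.0%. HNF1 letters were in 2.0%, 4.1% and 6.2%, and C/EBP letters in 0.55%, 1.23% and 1.79%, both rarer in members. AP-1 letters were in 2.9%, 3.7% and 7.0%. NRF1 letters were in 7.0%, 8.5% and 4.4%, and YY1 letters in 8.3%, 8.5% and 6.2%. GC box, CRE core, E-box, ETS and NRF1 letters contain CG, so CpG content may affect their shares, which was not tested. Of these, ETS and NRF1 were rarer in members than in other sharp regions.

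**Figure D3:**
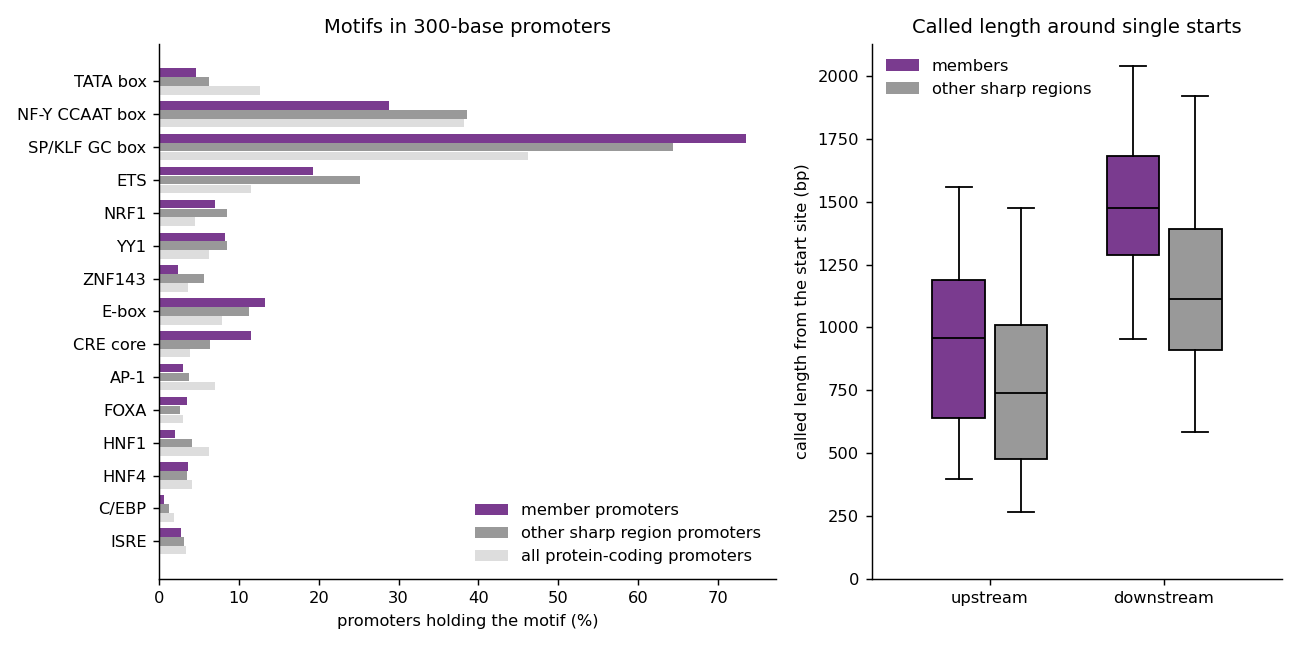
Left, percentage of 300-base promoters that hold each of 15 motifs on either strand, for members, other sharp regions and all protein-coding promoters. Right, called length upstream and downstream of the start in regions with a single start (median, quartile box, whiskers from the lowest to the highest 5%), where members reach a median of 1476 bp downstream and 956 bp upstream.

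No gene of the secreted plasma protein, apolipoprotein or cytochrome P450 lists had a member, and few had a sharp region. Of 24 gene lists by role, 57 members (11.4%) fell in at least 1, and 11 lists held no member. The list of spliceosomal, nucleolar and 7SK RNA genes could hold none, as lists were matched only at ends of protein-coding genes. The empty circadian clock, endoplasmic reticulum stress and immediate early gene lists had only 2, 5 and 7 sharp regions. No member lay at any of the 79 secreted plasma protein genes, 35 cytochrome P450 genes, 14 apolipoprotein genes, 26 interferon-stimulated genes, 75 cytosolic ribosomal protein genes or 36 histone genes that had a region in all 10 libraries. Sharp regions were few at the first 3 of these lists, with 8 at plasma protein genes (0.096% of the 8335), 16 at cytochrome P450 genes (0.192%) and 3 at apolipoprotein genes (0.036%), so a count of 0 members there is near the background. The cytosolic ribosomal protein genes had 64 sharp regions (0.768%), the interferon-stimulated genes 21 (0.252%) and the histone genes 16 (0.192%). Of 29 hepatocyte transcription factors with such a region, Cebpg was a member, at 179 tags per kb.

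The share of members at a list is set here beside its share of all sharp regions, with no test. Of 123 splicing and RNA-binding protein genes with a region in all 10 libraries 16 had a member, which was 3.2% of members against 1.09% of all sharp regions. The densest were at Hnrnpd (217 tags per kb), which binds AU-rich RNA, and at the splicing factor genes Tra2a (210.1) and Prpf38b (206.8). Of 67 ubiquitin and proteasome genes 10 had a member (2.0% of members against 0.60% of sharp regions), led by the ubiquitin-conjugating enzyme genes Ube2g1 (242), Ube2j1 (182) and Ube2q1 (179 tags per kb). Of 60 translation factor genes 8 had a member (1.6% against 0.528%), with Eif3a at 195 and the elongation factor Eef2 at 194 and the cap-binding Eif4e2 at 182 tags per kb. Oxidative phosphorylation had 4 of 78, a share of members (0.8%) near that of sharp regions (0.732%), with Atp5g3, a subunit of ATP synthase, at 184, Atp5md at 173 and Ndufb1 at 167 tags per kb. Of 200 Zfp zinc finger genes 7 had a member, a lower share of members (1.4%) than of sharp regions (1.98%), and Zfp644, Zfp236 and Zfp335 had 202, 200.1 and 189 tags per kb.

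Of 16 genes for MHC class I, which presents peptides to T cells, and the immunoproteasome, 4 had a member (0.8% of members against 0.132% of sharp regions): H2-Q6 at 230.4, H2-Q7 at 227, H2-D1 at 187 and H2-K1 at 171 tags per kb. The 4 members are at MHC class I genes of similar sequence, so reads may be assigned to the wrong one and the values are uncertain. H2-Q6 and H2-Q7 had inputs of 30.9 and 31.8 tags per kb, the highest of members at genes. Of 20 NF-kB and inflammation genes, Rela and Nfkb1 (165 tags per kb) had members.

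Several further families were listed after the members had been seen, so their counts describe the members and carry no support. They include 31 chromatin regulator members, among them Ino80, Kmt5b (240.1 tags per kb), a histone H4 methyltransferase, Crebbp (181), the acetyltransferase CBP, and Eed (164), a Polycomb subunit. There were 33 members at ubiquitin ligases and deubiquitinases, 29 at protein kinases and phosphatases such as Braf (158), 20 at vesicle traffic genes, 19 at RNA processing genes such as the m6A reader Ythdf1 (160.5), 18 at transcription factors such as Stat3 (161), Smad4 (154) and Creb1 (180.5), and 10 at small GTPases and G protein subunits such as Cdc42 (198 tags per kb).

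The age comparison asked whether these dense regions differed between old and young hepatocytes. Differences are log2 of old over young from limma with Benjamini-Hochberg adjustment over all 12550 regions called in all 10 libraries, after each library was centred on its median region, and a region was called at an adjusted p under 0.05. In summed scaled tags 1 of 500 members was called, Btaf1, higher in old. Over all regions tested 134 were called, which is 1.07% (0.534% higher in old). In tags per kb 1 member was called, Zfp362, lower in old, against 0.319% of all regions (0.0478% lower and 0.271% higher in old). The member called changed with the fit. With edgeR and a length offset, and with cyclic loess (an alternative added after seeing the data), 1 member was called higher in old, Btaf1, and 0 lower. Zfp362 stayed lower in old in both without passing. Over all regions edgeR with the length offset called 68 (0.542%) and cyclic loess 14 (0.112%). A stricter overlap with the merged region also called 1 member higher and 0 lower (of 421 members, with 11 of 5593 regions called). In called length no member and no region was called (0%). There 28 members (5.6%) had an unadjusted limma p under 0.05, against 12.2% of all regions. At that unadjusted level 69 members (13.8%) were found in summed tags, against 17.2% of all regions. In tags per kb they were 63 (12.6%), against 14% of all regions.

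Btaf1 encodes an ATPase that displaces the TATA-binding protein from DNA, and its member is chr19:36924775-36928175. It had 558, 643, 687, 554 and 492 scaled tags in old libraries, against 345, 510.3, 386, 488 and 329.7 scaled tags in young libraries. The scaled tags overlapped slightly, since old replicate 5 was below young replicate 2, and after centring the ages did not overlap. The log2 difference was 0.82 (SE 0.09, n = 5 each, limma adjusted p = 0.00261). Without centring it was 0.52 (adjusted p = 0.0618), and with IP efficiency as a covariate 0.83 (adjusted p = 0.0543). In tags per kb it was 0.59 (SE 0.15, adjusted p = 0.103), and it passed with edgeR and a length offset (0.76, adjusted p = 0.0164) and with cyclic loess (0.69, adjusted p = 0.0299).

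The input at Btaf1 also differed. It was 16.4, 21.7, 19.7, 10.4 and 17.3 tags per kb in old libraries, against 12.9, 9.06, 20.5, 5.82 and 4.90 tags per kb in young libraries. Divided by the median member input of the same library, it was 1.19, 1.64, 1.61, 1.15 and 1.31 in old libraries, against 0.58, 0.69, 0.71, 0.72 and 0.74 in young libraries. Old libraries were above every young library in this ratio, which was computed after the input values had been seen and was not tested. Such a gap with old above young occurred in 3 of 500 members (0.6%), and with old below young in 6 (1.2%). The share over all regions was not counted, so these shares have no background beside them. H3K27ac density over the median member of the library was 1.38 ± 0.22 in old and 0.84 ± 0.08 in young libraries (SD, n = 5 each), and the input ratio 1.38 ± 0.23 in old and 0.69 ± 0.06 in young libraries. Tags over input were 13.004 ± 2.02 in old and 19.7 ± 10.1 in young libraries. They were 9.67 and 8.32 in young replicates 1 and 3, against 23.8, 31.3 and 25.2 in young replicates 2, 4 and 5. At Zfp362 tags over input were similar, at 13.7 ± 2.44 in old and 19.0 ± 9.85 in young libraries. The lower old mean was thus not particular to Btaf1. The part of input in the Btaf1 difference was not tested.

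Zfp362 encodes a zinc finger protein, and its member is chr4:128804069-128807717. It had 143, 119.8, 149.9, 123 and 157 tags per kb in old libraries, against 232, 253, 273, 235 and 165 tags per kb in young libraries. Every old library was below every young library, with old replicate 5 and young replicate 5 close together. The log2 difference was -0.56 (SE 0.11, n = 5 each, limma adjusted p = 0.0395). The call was lost without old replicates 1 to 5 in turn and without young replicates 2, 3, 4 or 5 (adjusted p 0.0569 to 0.125), while the log2 difference stayed between -0.62 and -0.51. It was also lost with IP efficiency as a covariate (-0.67, limma adjusted p = 0.197), without centring (-0.73, 0.0809), with cyclic loess (-0.46, 0.161) and with edgeR and a length offset (-0.41, edgeR adjusted p = 0.192). In summed tags the difference was -0.33 (SE 0.10, adjusted p = 0.139). Its input was 11.8, 7.73, 9.25, 8.61 and 15.2 tags per kb in old libraries, against 25.7, 11.7, 33.03, 8.05 and 6.13 tags per kb in young libraries, and the ages overlapped.

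**Figure D4:**
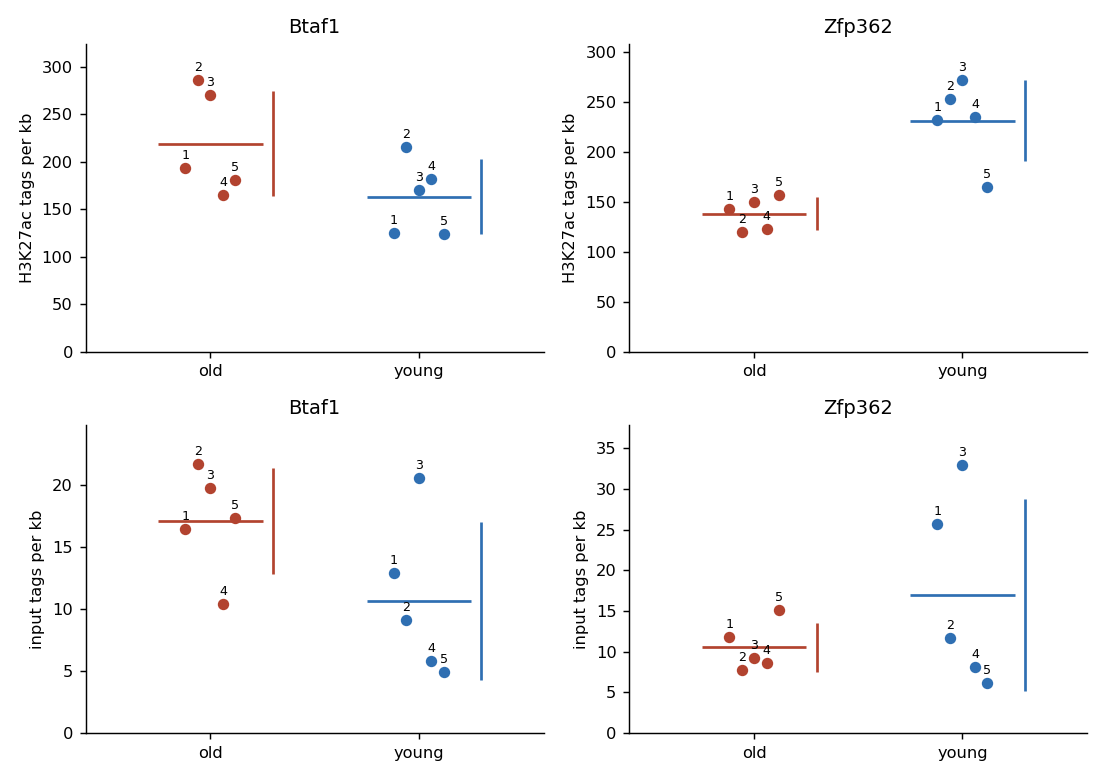
H3K27ac tags per kb (top) and input tags per kb (bottom) at Btaf1 and Zfp362 in old and young libraries. Points are libraries numbered by replicate, horizontal lines are means and vertical lines are ± 1 SD over 5 libraries. At Zfp362 the old points, 119.8 to 157 tags per kb, lie below the young points, 165 to 273.

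The highest log2 difference of any member in summed tags was at chr8:20121806-20124206, 1.25 with an SE of 0.78 (limma adjusted p = 0.439), where young replicates 1 and 3 were low. Other members had centred values that did not overlap between ages without passing the test. Besides Btaf1, there were 15 in summed tags, 3 with old above young and 12 with old below. With Btaf1 they were 16 (3.2%), against 5.28% of all regions (2.33% above and 2.96% below). Old was above young at H2-Q7 (log2 difference 0.56, adjusted p = 0.136), at the homeobox gene Nkx2-6 (0.42, adjusted p = 0.0731) and at Zfp438 (0.37, adjusted p = 0.215). Without centring these were 0.26, 0.12 and 0.07, in that order, and Zfp438 was at 0.23 without young replicate 1. Nkx2-6 passed with cyclic loess (limma adjusted p = 0.0368) and with DESeq2 (adjusted p = 0.0025). At H2-Q7 young replicate 1 had a called length of 626 bp, against 1406 to 1829 bp in old libraries and 1460.0 to 1911 bp in the other young libraries. Old was below young at Ttll11, a tubulin-modifying enzyme gene (-0.57, adjusted p = 0.0817), at Tmem87b (-0.50, 0.0733), at the Polycomb-related Sfmbt1 (-0.39, 0.059), at Otud4, a deubiquitinase gene (-0.38, 0.0767), at Serp1/Eif2a (-0.36, 0.15), at Cab39 (-0.36, 0.0903), at Ncl, which encodes nucleolin (-0.35, 0.105), and at Sephs1 (-0.35, 0.107), all with limma adjusted p-values above 0.05.

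In tags per kb 19 members (3.8%) did not overlap, 18 of them, the called Zfp362 included, with old below young, against 3.72% of all regions (1.61% with old below young). Bend3, which encodes a DNA-binding repressor, had 144, 143, 155, 142 and 152 tags per kb in old libraries, against 219, 279.8, 242, 245 and 172 tags per kb in young libraries. The old libraries were close together and below all young libraries, with a log2 difference of -0.47 (SE 0.11, limma adjusted p = 0.0627). The next were Xpo6 (-0.43), Zmynd11 (-0.42), Tdrd3 (-0.39), Tial1 (-0.39), Gabarap/Phf23 (-0.37) and a region inside Atad2b (-0.34), with adjusted p-values of 0.112 to 0.183. The 1 member with old above young, against 2.11% of all regions, was Btaf1. In called length 8 members (1.6%) did not overlap, all with old shorter, against 3.46% of all regions (3.22% with old shorter and 0.239% with old longer). The first were Pex13, a peroxisome import gene (-0.51, adjusted p = 0.23), Tfdp1, the partner of E2F factors (-0.42, 0.21), Rab14 (-0.38, 0.161) and a region inside Trmo (-0.36, 0.213), none past the limma test.

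With each library centred on its median region, most member differences were slightly negative. The median log2 difference of members was -0.11 in tags per kb, with 393 of 500 negative, and -0.07 in summed tags, with 328 negative. Over all regions tested the medians were 0.00 and -0.01, and 50.8% and 48.3% of differences were above 0. This depended on the scaling. With cyclic loess normalization, chosen after seeing the data, the member medians were -0.00 in tags per kb and 0.00 in summed tags, and with edgeR and a length offset 0.05 in tags per kb. Without centring the median region was itself lower in old, by a log2 shift of -0.30 in summed tags and -0.17 in tags per kb, and 47 members (9.4%) were called in summed tags, 0 higher and 47 lower, against 725 of all 12550 regions (5.78%). IP efficiency was lower in old libraries over the same samples. With it as a covariate the member medians were -0.04 in tags per kb and -0.10 in summed tags.

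**Figure D5:**
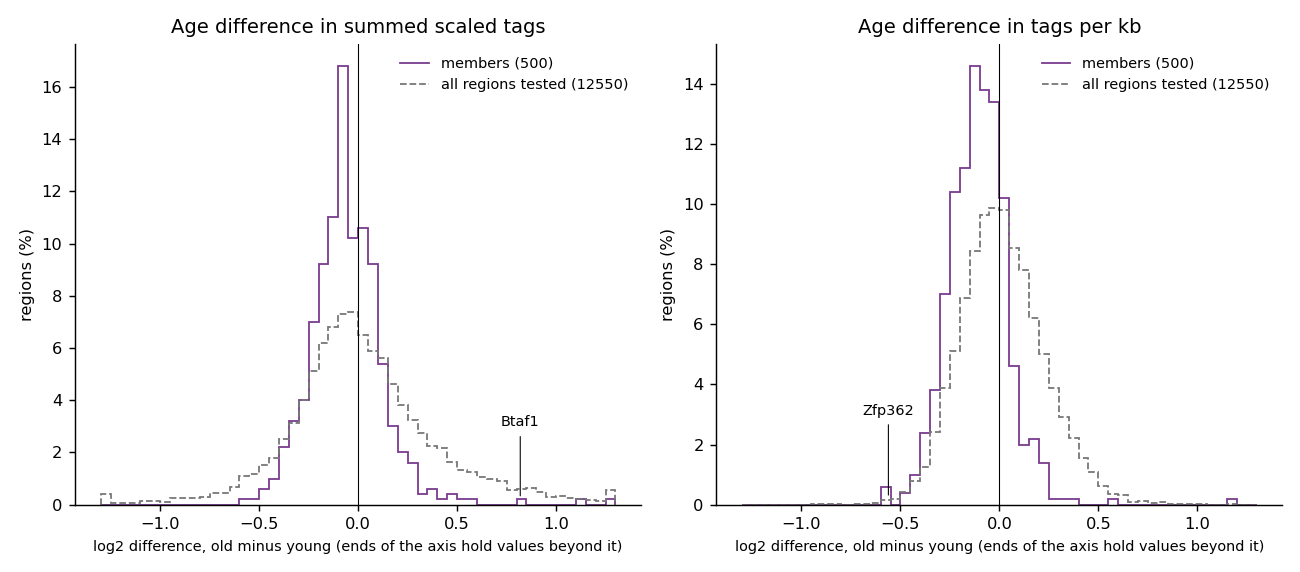
Percentage of regions by log2 difference, old minus young, in summed scaled tags (left) and tags per kb (right), for the 500 members (solid) and all 12550 regions tested (dashed). Members form a narrower band with medians of -0.07 and -0.11, and the called members Btaf1 and Zfp362 are marked.

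By role, no list had a member called except the Zfp genes through Zfp362. All 8 translation factor members had negative differences in summed tags, with a median of -0.22, though 2 of the 8 were above 0 with cyclic loess, and in tags per kb 3 of 8 were positive. The 16 splicing and RNA-binding members had a median of -0.05 in summed tags, the 10 ubiquitin and proteasome members -0.09, and the 4 oxidative phosphorylation members -0.09. With cyclic loess these 3 medians were 0.02, -0.03 and -0.02. The 4 MHC class I members had positive differences in summed tags, 0.19 to 0.56 with a median of 0.40, but without centring H2-D1 was at -0.11 and H2-K1 at -0.01 and 2 of the 4 were above 0. In tags per kb their median was 0.04, and -0.13 without centring. Rela and Hipk3 had no fixed direction: in summed tags Rela was at 0.15 (limma adjusted p = 0.454) and at -0.15 without centring, and Hipk3 at 0.03 (limma adjusted p = 0.909) and at -0.26 without centring.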

How the data were processed

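H3K27ac ChIP-seq region lists of 5 old and 5 young hepatocyte libraries were analysed, and the 10 input samples were used as the control tags listed beside each region. Regions had been called by the authors library by library with HOMER in its histone mode, per the file headers (build mm10, per the submitters' processing notes), against the library's own input, with a window of 500 bp, a minimum distance of 1000 bp, at least 4-fold over input, a Poisson p of 1e-04 and at most 1 tag counted per position. The aligner is not given in the sources used here. A spike-in of human chromatin is named in the labels' protocols, but no spike-in scaling was used here, so total acetylation cannot be compared between ages.

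The deposited normalized tag signal was brought by the authors to a library size of 10000000 tags, and the deposited control signal is input scaled to the H3K27ac library. The deposited unscaled tags are estimated counts in steps of 0.5, rounded for edgeR and DESeq2. The region size is deposited in bp. The deposited score, the fold change (ratio) over input and the p-value of each region are the authors' own and were used only to filter or describe regions.

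Regions were merged by 1 bp overlap, and the values of a library's regions in a merged region were summed. Age differences were fitted with limma 3.58.1 (R 4.3.3, trend, n = 5 each) on log2(value + 1), centred on the median of the 12550 regions called in all 10 libraries (called length was not centred), with Benjamini-Hochberg adjustment over them. edgeR 4.0.16, DESeq2 1.42.0, leaving out libraries, covariates and other scalings were alternatives. The limma step was tested on simulated summed counts with a single fixed dispersion and changes larger than most member differences. The simulated libraries did not differ in IP efficiency, input or called length, so the test does not cover the effect of these on the calls. Gene positions and promoters came from RefSeq (GRCm38.p6), whose promoter table covers 17491 of 21896 protein-coding genes. Promoter, list and input features were described with no test. The text names the 10 densest members, the called members and those of largest difference without overlap between ages, the 3 densest of each role list with 3 or more members, and the regions at the edge of the choice. Other members named as examples were chosen after their values were seen. The members and lists were chosen with earlier results of these data known. Counts limit the precision of single members: the fewest unscaled tags of a member in a library were 15.5.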

Additional observations from a re-analysis of the deposited data

Results flagged for a closer look

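Of 120 groups of 5 libraries examined, 8 held a library set apart from the other 4 by a gap of more than 0.71 of the group's range. Chance flags about 1 in 20 such groups. At chr19:61199092-61200528 old replicate 5 had 267 tags per kb, against 421 to 457 in the other old libraries, and young replicate 5 had 326, against 489 to 534 in the other young libraries. At Hipk3 old replicate 4 had 178 tags per kb, against 258 to 276 in the other old libraries. At Nkx2-6, a homeobox gene, young replicate 5 had 104 tags per kb, against 171 to 198 in the other young libraries. At Setd2, which encodes a histone methyltransferase, old replicate 2 was high at 185 tags per kb, against 121 to 136 in the other old libraries. Young replicate 5 held 15544145 tags, against 7341342 to 8830854 in the other young libraries. Its fragment length in the header was 620 bp, against 414 to 444 bp in the other young libraries. Old replicate 4 had a fragment length of 444 bp, against 440 bp in each of the other old libraries.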

How the results depend on the processing

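Members called in summed tags numbered 1, and 1 to 4 with a library left out (4 without young replicate 1). The number was 0 with IP efficiency as a covariate. It was 4 with a stricter overlap with the merged region (of 421 members, with 95 of 5593 regions called). With regions at least 8-fold over input it was 3 (of 143 members, with 42 of 2159 regions called). It was 2 (0.4%) without young replicates 1 and 3 together, against 259 of all regions (2.06%). With a pseudocount of 10 it was also 2, against 173 of all regions (1.38%). When centred on sharp regions it was 2, against 167 (1.33%), and with cyclic loess 3 (0.6%), against 104 (0.829%). It was 47 without centring and 17 with DESeq2 (3 higher and 14 lower). In tags per kb it was 1, and 0 to 6 with a library left out (6 without young replicate 1). It was 0 with IP efficiency as a covariate, 0 at 8-fold, 0 without centring and 0 with a mean of at least 100 scaled tags. Without young replicates 1 and 3 together it was 3 (0.6%), against 106 of all regions (0.845%). The causes were not tested. Over all regions, 134 calls in summed tags compare with 619 by DESeq2, 725 without centring, 0 with the covariate and 30 to 255 with a library left out, and 40 calls in tags per kb with 0 with the covariate, 3 without centring and 5 to 100 with a library left out. Btaf1 was called in 17 of 19 alternatives and Zfp362 in 3 of 18. None of the 25 member differences followed through the alternatives reversed. These had been chosen as called or as the largest without overlap between ages, so this does not bear on the other members. In summed tags Rela, Hipk3, H2-D1 and H2-K1 changed sign without centring. The share at gene ends was 92.0% within 5 kb and 70.0% for regions at least 8-fold over input.

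Old and young libraries share replicate numbers, but same-numbered libraries deviated together little (r of -0.01, 0.11, 0.18, -0.05 and 0.07 across 12550 regions). Old replicates 3 and 5 had their highest r with the young library of the same number, and old replicates 1, 2 and 4 with another. The labels do not say what a shared number marks, and such correlations cannot settle whether libraries were paired. With the replicate block 1 member was called in summed tags, 0 in tags per kb (Zfp362 adjusted p = 0.0806) and 0 in called length, and over all regions 74 in summed tags and 18 in tags per kb. The fewest unscaled tags of a single member, 15.5, were in young replicate 1, where the median member held 347.5. The lowest median was 201.5, in old replicate 5, the library with the fewest tags.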
